A study of Mus musculus with 2 samples.

Results

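The primary cilium genes and the genes of cystic kidney disease were followed in the kidneys of mice that lack Iah1, which encodes a putative esterase named for isoamyl acetate. Members were taken by name: symbols made of Ift, Bbs, Nphp or Tctn and a number, together with a fixed list of polycystic kidney, nephronophthisis and Meckel syndrome genes and of cilium motors and GTPases. Of 22180 genes measured by a probe set with 1 symbol, 49 met this rule, each represented by its brightest probe set. The rule used no measured value. Inpp5e, Tctn1 and Tmem216 share their probe sets with a neighbouring gene and are given apart, and Arl13b, Arl6 and Pkd2 are not analysed here.

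Both groups were male mice that were fed standard chow to 6 weeks of age and then a high-fat diet for 12 weeks, and that were caged singly and killed after 4 hours without food. The Iah1-KO group carried a systemic Iah1 knockout and the Iah1-WT group was its wild type. Each group was 1 Affymetrix whole-transcript array hybridised with kidney RNA pooled from 3 mice, so no test between genotypes is possible, the spread between mice is unknown, and all differences below are between 2 pools. The sources used here do not give the strain, the deleted part of Iah1 or the driver of any recombination.

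A primary cilium is a single antenna of microtubules on the lumen side of nearly every tubule cell of the nephron. It is built by intraflagellar transport, in which kinesin carries trains of IFT proteins to the tip and dynein returns them, and it is closed at its base by the transition zone, a gate for membrane proteins. The BBSome rides on these trains and carries receptors. In the kidney the cilium holds the polycystins, and loss of many of its parts makes tubules widen into cysts.

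The labels were checked first. Iah1 itself stood at log2 3.60 in the Iah1-KO pool, below that array's median probe set of 4.03, and at 9.09 in the Iah1-WT pool. The proximal tubule endocytic receptor Lrp2, a kidney marker, was at 11.80 in the Iah1-KO and 11.85 in the Iah1-WT pool. Values are log2 RMA values; they compare 1 probe set between arrays and do not rank genes by amount. A gene was counted as expressed where the higher of its 2 values was at least 6, the floor, which 7671 genes and 30 members reached. The other 19 members lay below it and are named as such.

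No member differed by 1.5-fold in either direction, a size that 0.43% of the genes at or above the floor reached. At 1.2-fold (0.26 on the log2 scale), 2 of the 30 members were higher in the Iah1-KO pool, Bbs4 and Ift81, beside 5.36% of all genes at or above the floor, and 0 were lower, beside 3.77%. That makes 6.67% of the members beyond 1.2-fold, beside 9.13% of all genes, a gap too small to read in 30 members. Bbs4 and Ift81 were both under the floor in Iah1-WT, so they could only be counted as higher. With the floor required in both arrays, 0 members were higher by 1.2-fold, beside 3.98% of all genes. The members were split evenly, 15 above 0 and 15 below, where 52.4% of all genes lay above 0. Their median difference was 0.01 on the log2 scale, as was that of all 7671 genes, and they spanned -0.23 to 0.52. In whole kidney, fewer cells of a type and less RNA per cell cannot be told apart.

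**Figure D1:**
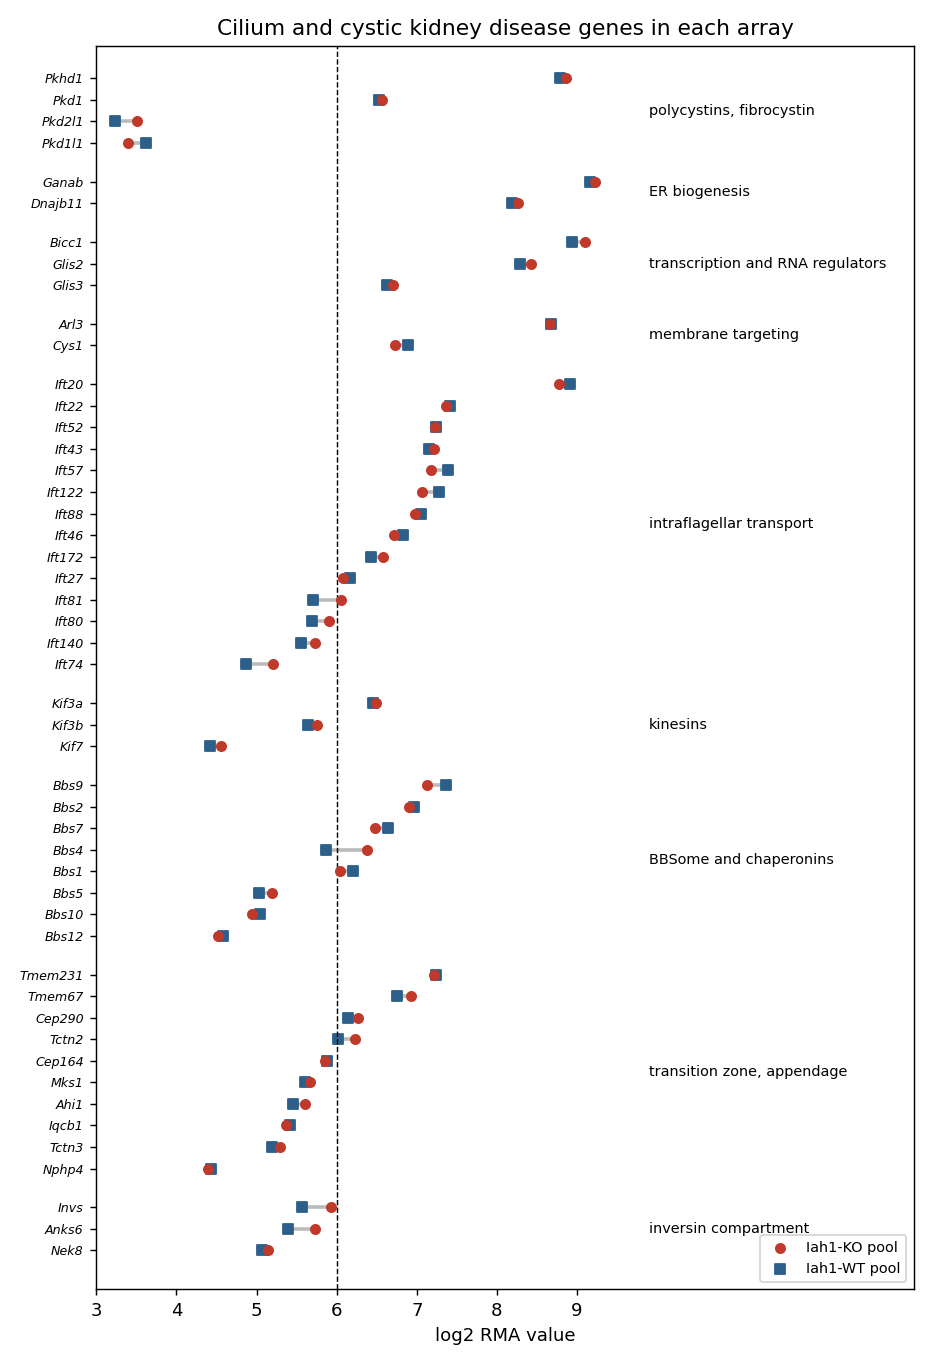
Log2 RMA value (horizontal axis) of the 49 genes in the Iah1-KO pool (circles) and the Iah1-WT pool (squares), 1 array each, grouped by role; the dashed line is the floor of 6. The symbols of most genes touch or overlap, and the longest bar is that of Bbs4, at 6.38 in the Iah1-KO and 5.86 in the Iah1-WT pool.

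**Figure D2:**
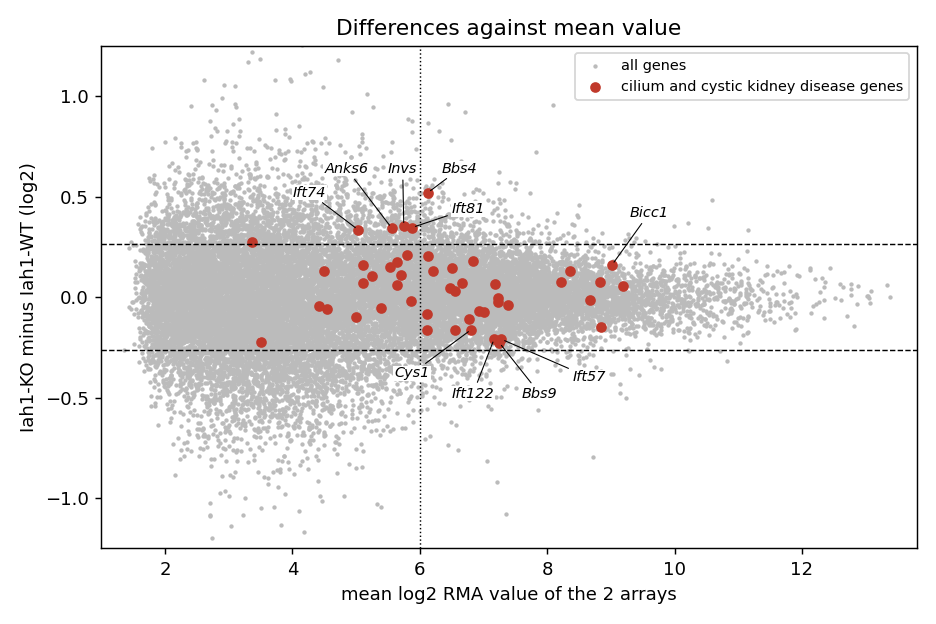
Difference between the Iah1-KO and Iah1-WT pools (log2, vertical axis) against the mean log2 RMA value (horizontal axis) for all genes (grey) and the cilium and cystic kidney disease genes (red). Dashed lines mark 1.2-fold, the dotted line the floor of 6, and 10 genes lie outside the vertical axis. The scatter of all genes narrows with the mean value, and the members lie inside the grey cloud.

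How much a gene scattered depended on its brightness, as the plot of difference against mean value shows. The robust SD of the differences (a scaled median absolute deviation) over the 500 genes nearest in mean value was 0.26 at a mean of 5, 0.19 at 6, 0.13 at 7 and 0.09 at 9. Each member is therefore set beside the robust SD at its own brightness, which describes genes on these 2 arrays and not replicate error.

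Many cilium genes share a regulator, so their promoters are shown before the values. RFX transcription factors bind the X-box, a pair of inverted sites, in front of cilium genes from worms to mammals. RefSeq promoter windows (GRCm38.p6, 250 bases before to 50 after a transcript's start) were given for 41 of the 49 members. The single site GTTGCC, the letters of 1 arm of the X-box, was searched on both strands. It matched in 16 of the 41 (39.0%), against 14.1% of 27025 genes of all kinds. For the 6135 genes at or above the floor with a window the share was 14.0%. Among the members, 9 of the 16 with a match and 16 of the 25 without one were at or above the floor. This site was kept after longer X-box forms had also been tried on the members, so the shares are descriptions, and a match is not a shown binding site. The matches in 8 of the genes at or above the floor follow, from the highest to the lowest difference, because these genes carry the values below. Each is read along the gene's strand with 13 bases on either side and the 6 matching bases in capitals; a match found on the opposite strand appears as its reverse complement, GGCAAC.
Tctn2, chr5:124598749-124598780, plus strand: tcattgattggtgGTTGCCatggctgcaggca
Ift172, chr5:31291096-31291127, minus strand: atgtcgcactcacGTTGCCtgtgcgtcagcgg
Kif3a, chr11:53567258-53567289, plus strand: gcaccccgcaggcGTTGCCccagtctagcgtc
Tmem231, chr8:111933899-111933930, minus strand: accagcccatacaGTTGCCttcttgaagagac
Tmem231, chr8:111933784-111933815, minus strand: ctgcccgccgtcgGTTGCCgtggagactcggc
Ift88, chr14:57424079-57424110, plus strand: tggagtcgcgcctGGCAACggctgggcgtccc
Ift27, chr15:78174072-78174103, minus strand: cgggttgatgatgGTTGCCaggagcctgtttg
Bbs1, chr19:4906608-4906639, minus strand: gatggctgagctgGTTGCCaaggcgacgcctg
Bbs7, chr3:36613492-36613523, minus strand: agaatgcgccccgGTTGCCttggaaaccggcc

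Tmem231 holds a match 104 bases before the start and one 11 bases after it. The 16 genes with a match did not share a direction: 8 were higher and 8 lower in the Iah1-KO pool, with a median difference of 0.01 and a range of -0.21 to 0.20. The 25 members with a window and no match had a median of 0.03, with 13 higher and 12 lower. Among the RFX factors, Rfx1 was at 6.21 in the Iah1-KO and 5.98 in the Iah1-WT pool. Rfx2 (5.95 in Iah1-KO, 5.71 in Iah1-WT) and Rfx3 (5.96 in Iah1-KO, 5.68 in Iah1-WT) lay below the floor, with robust SDs of 0.20 at their brightness.

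**Figure D3:**
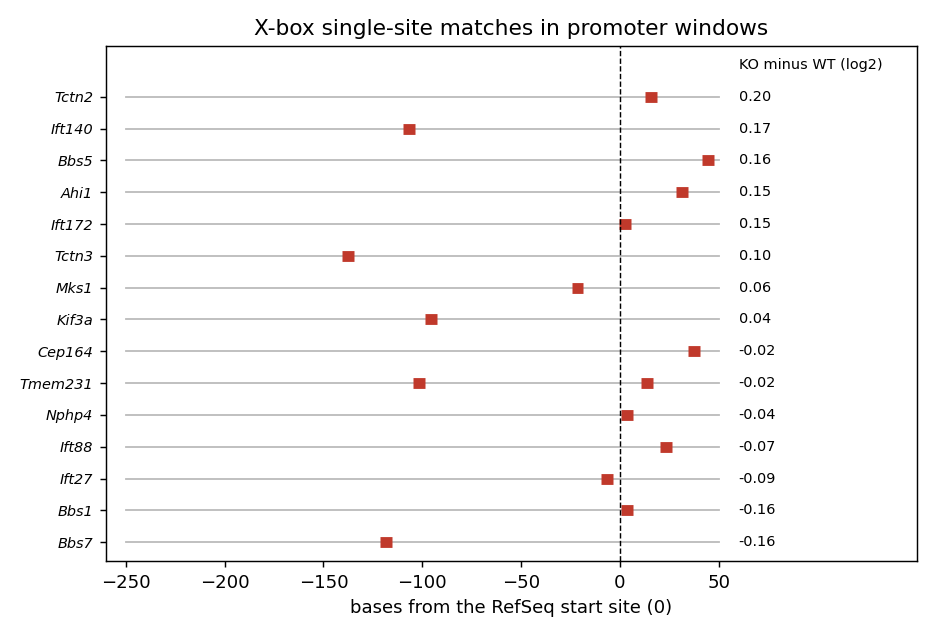
Position of each GTTGCC match on either strand (red blocks) in the RefSeq promoter windows of 15 of the 16 members that hold one, in bases from the start site, with the difference between the Iah1-KO and Iah1-WT pools (log2) beside each gene. Genes with a positive and with a negative difference both hold matches close to the start.

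The whole windows of Bbs4 and Bbs9 are shown because these BBSome subunits had the highest and the lowest difference of the members at or above the floor. These letters are in neither window, so no capitals are used.
Bbs4, chr9:59353459-59353758, minus strand: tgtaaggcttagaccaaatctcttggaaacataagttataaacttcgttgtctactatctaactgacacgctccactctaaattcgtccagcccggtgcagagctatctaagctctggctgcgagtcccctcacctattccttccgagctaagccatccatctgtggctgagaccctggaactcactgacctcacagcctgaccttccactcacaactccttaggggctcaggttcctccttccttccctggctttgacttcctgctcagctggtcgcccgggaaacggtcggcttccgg
Bbs9, chr9:22475465-22475764, plus strand: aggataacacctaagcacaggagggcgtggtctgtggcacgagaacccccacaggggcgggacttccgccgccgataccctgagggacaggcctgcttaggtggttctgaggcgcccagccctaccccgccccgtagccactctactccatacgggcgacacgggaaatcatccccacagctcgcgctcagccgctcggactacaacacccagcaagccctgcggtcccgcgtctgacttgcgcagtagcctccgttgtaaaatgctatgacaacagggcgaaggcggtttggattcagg

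The BBSome, the coat that moves receptors into and out of the cilium, held the widest spread. Bbs4, the subunit that binds the centriolar satellite protein PCM1, was at 6.38 in the Iah1-KO and 5.86 in the Iah1-WT pool. Its difference of 0.52, or 1.43-fold, was 2.82 robust SDs at its brightness and ranked 63 among the 7671 genes by size. Bbs4 was under the floor in Iah1-WT, so it had to be higher in Iah1-KO to be counted. The other 4 BBSome members at or above the floor lay on the other side of 0. Bbs9, a scaffold subunit, was at 7.13 in the Iah1-KO and 7.36 in the Iah1-WT pool, a difference of -0.23, or 1.73 robust SDs below 0. Bbs7 (6.48 in Iah1-KO, 6.64 in Iah1-WT) and Bbs1 (6.04 in Iah1-KO, 6.20 in Iah1-WT), which docks the coat to the GTPase ARL6, both differed by -0.16. Bbs2, at 6.90 in Iah1-KO and 6.97 in Iah1-WT, differed by -0.07. Bbs4 was thus alone above 0 among these 5 subunits, on 1 probe set and 1 array a genotype.

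Below the floor, Bbs5 was at 5.19 in the Iah1-KO and 5.03 in the Iah1-WT pool. The chaperonin-like assembly factors Bbs10 (4.94 in Iah1-KO, 5.04 in Iah1-WT) and Bbs12 (4.52 in Iah1-KO, 4.58 in Iah1-WT) differed by less than their robust SDs. Over all 8 Bbs genes, 2 were higher and 6 lower, with a median difference of -0.08. Of 7 BBSome partners under other names at or above the floor, 2 were above 0 and 5 below. Ttc8, another BBSome subunit, was at 7.12 in Iah1-KO and 7.11 in Iah1-WT. Rab11a, a GTPase of recycling vesicles, was furthest at -0.27, the 1 gene of these past 1.2-fold, beside 3.77% of all genes at or above the floor that were lower.

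Of 14 Ift genes, which encode subunits of the intraflagellar transport trains, 11 reached the floor, 3 of them above 0 and 8 below, and their median was -0.07. The other 3 lay above 0, so that with no floor 6 were above 0 and 8 below, with a median of -0.02. The peripheral IFT-B subunit Ift57 was at 7.18 in the Iah1-KO and 7.38 in the Iah1-WT pool, a difference of -0.21. Ift122, of the IFT-A complex that works in return transport, was at 7.06 in Iah1-KO and 7.27 in Iah1-WT, also -0.21. Ift20, which also serves at the Golgi, was at 8.77 in Iah1-KO and 8.92 in Iah1-WT, a difference of -0.15. These 3 differences were 1.58, 1.67 and 1.44 robust SDs in size, and each was under 1.2-fold.

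On the other side, Ift81 was at 6.05 in the Iah1-KO and 5.71 in the Iah1-WT pool, a difference of 0.35, or 1.27-fold. Its partner Ift74, with which it forms the tubulin-binding module of the train, was at 5.20 in Iah1-KO and 4.86 in Iah1-WT, a difference of 0.33 below the floor. The pair thus had nearly equal differences, of 1.74 and 1.33 robust SDs. Ift81 was under the floor in Iah1-WT, like Bbs4. Ift172, the largest IFT-B subunit, was at 6.58 in Iah1-KO and 6.43 in Iah1-WT, and Ift43 of IFT-A at 7.22 in Iah1-KO and 7.15 in Iah1-WT. Ift80 (0.21) and Ift140 (0.17) were below the floor.

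The remaining Ift genes stayed close to 0. Ift88, the gene disrupted in the Oak Ridge polycystic kidney mouse, was at 6.98 in the Iah1-KO and 7.05 in the Iah1-WT pool. Ift46 differed by -0.11, Ift27 by -0.09, Ift22 by -0.04 and Ift52 by 0.00. All 5 stayed within 1 robust SD.

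Train subunits that carry other symbols were read from a list. All 6 that reached the floor, the IFT-A adaptor Tulp3 among them, were below 0, and their median was -0.10. Wdr19 (-0.03), Tulp3 (-0.03) and Cluap1 (-0.04) were close to 0, beside robust SDs of 0.15, 0.13 and 0.16. Wdr35, of IFT-A, was at 7.06 in the Iah1-KO and 7.33 in the Iah1-WT pool, a difference of -0.27, and Ttc21b, also of IFT-A, was at 6.39 in Iah1-KO and 6.60 in Iah1-WT. The IFT-B subunits Traf3ip1 and Cluap1 differed by -0.15 and -0.04. Ttc26, an IFT-B subunit below the floor, was the exception in size, at 5.89 in Iah1-KO and 5.51 in Iah1-WT. Sorted by complex after the values were seen, 5 IFT-A subunits that reached the floor had a median of -0.21, 6 core IFT-B subunits of -0.06 and 5 peripheral ones of -0.15. In total 3 of these 16 were above 0 and 13 below, where 52.4% of all genes at or above the floor lay above 0. In each direction 1 passed 1.2-fold, beside 5.36% of all genes higher and 3.77% lower. Over all 24 subunits with no floor, 8 were above 0 and 16 below, and the median was -0.04, against -0.08 for the 16.

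The motors went both ways. Kif3a, a motor subunit of the kinesin that drives trains outward, was at 6.49 in the Iah1-KO and 6.45 in the Iah1-WT pool. Its partner Kif3b (5.75 in Iah1-KO, 5.64 in Iah1-WT) and the tip kinesin Kif7 (4.56 in Iah1-KO, 4.42 in Iah1-WT), a regulator of Hedgehog signalling, lay below the floor. Kifap3, the adaptor of the same kinesin, differed by -0.21. Of the list of dynein and other motor genes, 7 were at or above the floor, 4 above 0 and 3 below. Tctex1d2, a dynein light chain, was furthest at 6.40 in Iah1-KO and 6.08 in Iah1-WT. It was the 1 gene of these past 1.2-fold, beside 5.36% of all genes at or above the floor that were higher. The dynein intermediate chain Wdr34 differed by 0.25. The dynein heavy chain Dync2h1 differed by -0.09.

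**Figure D4:**
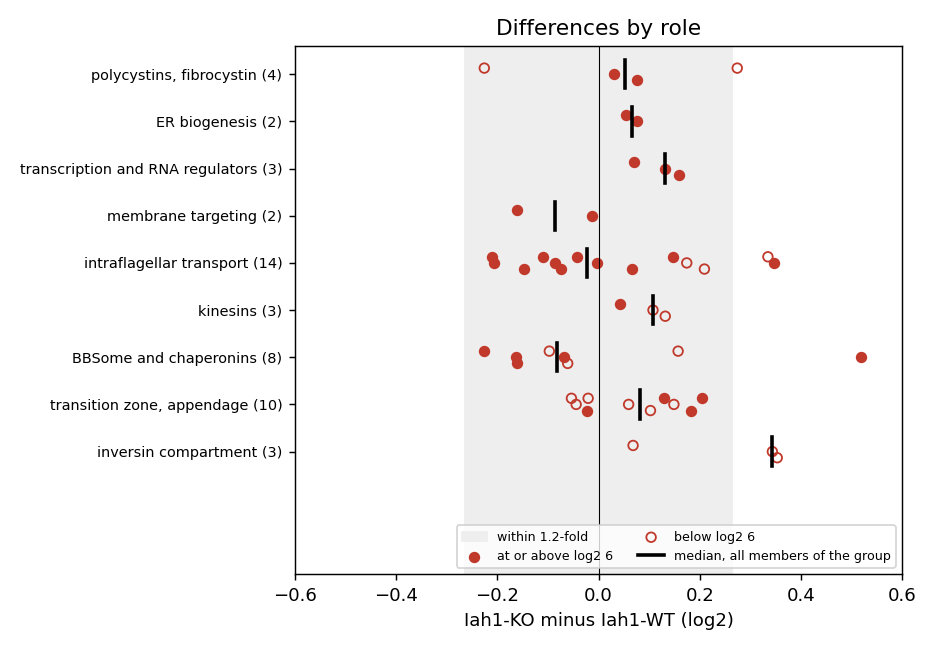
Difference between the Iah1-KO and Iah1-WT pools (log2) for each of the 49 genes by role, with the number of genes in brackets. Filled circles are at or above the floor of 6, open circles below it, black bars the median of the group, and the grey band marks less than 1.2-fold. Outside the band lie Bbs4 and Ift81 at or above the floor, and Invs, Anks6, Ift74 and Pkd2l1 below it.

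The transition zone genes, several of which are mutated in Meckel and Joubert syndromes, showed no shared direction: 6 of 10 were above 0 and 4 below. Tctn2, a tectonic of the zone's membrane complex, was at 6.23 in the Iah1-KO and 6.02 in the Iah1-WT pool, a difference of 0.20. Tmem67, the receptor-like protein meckelin, was at 6.93 in Iah1-KO and 6.75 in Iah1-WT, and Cep290, which links membrane to microtubules, at 6.27 in Iah1-KO and 6.14 in Iah1-WT. Tmem231 was at 7.21 in Iah1-KO and 7.24 in Iah1-WT. Of these 4 at or above the floor 3 were above 0, and each was within 1.2 robust SDs. With a floor of 7, Tmem231 alone is left, at -0.02. Tmem67 has a second probe set, at 2.59 in Iah1-KO and 2.57 in Iah1-WT, which is too dim to bear on it.

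The 6 members of this group below the floor lay between -0.05 and 0.15, 3 above 0 and 3 below. Ahi1, the Joubert syndrome protein jouberin, was furthest, at 5.61 in the Iah1-KO and 5.46 in the Iah1-WT pool. Mks1 was at 5.67 in Iah1-KO and 5.61 in Iah1-WT, Tctn3 at 5.29 in Iah1-KO and 5.19 in Iah1-WT, and the distal appendage protein gene Cep164 at 5.85 in Iah1-KO and 5.87 in Iah1-WT. Iqcb1 and Nphp4, of the nephrocystin module, differed by -0.05 and -0.04.

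From a list of other genes placed with the transition zone, 8 reached the floor. Of these 6 were above 0 and 2 below, and 3 were higher by 1.2-fold, beside 5.36% of all genes. These were 2700049A03Rik, listed as Talpid3 (6.27 in Iah1-KO, 5.87 in Iah1-WT), B9d1 (6.11 in Iah1-KO, 5.84 in Iah1-WT) and Tmem80 (6.43 in Iah1-KO, 6.15 in Iah1-WT). Tmem237 differed by 0.17. Of these, 2700049A03Rik and B9d1 were under the floor in Iah1-WT, so they had to be higher in Iah1-KO to be counted, and the tally above 0 is no sign of a direction. Below the floor the same list went both ways, with B9d2 at 0.59, Tmem17 at -0.62 and Tmem107 at -0.20. Basal body genes had 3 at or above the floor, with Ninl at 0.36, which was also under the floor in Iah1-WT, Cby1 at -0.26 and the satellite scaffold Pcm1, the partner of BBS4, at 8.31 in Iah1-KO and 8.25 in Iah1-WT.

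The inversin compartment, the stretch of cilium just above the transition zone whose loss causes nephronophthisis, had all of its members below the floor. Invs, which encodes its organiser inversin, was at 5.93 in the Iah1-KO and 5.57 in the Iah1-WT pool. Anks6, an ankyrin-repeat activator of the kinase NEK8, was at 5.73 in Iah1-KO and 5.39 in Iah1-WT. The differences of 0.35 and 0.34 were 1.76 and 1.86 robust SDs. Nek8 itself was at 5.14 in Iah1-KO and 5.07 in Iah1-WT. Of all genes whose higher value was from 5 to under 6, 13.6% were higher by 1.2-fold and 12.6% lower. Of the 14 members in that range 3 were higher (Invs, Anks6 and Ift74) and 0 lower. Ift74 was under 5 in Iah1-WT, so it had to be higher in Iah1-KO to be counted there.

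The polycystic kidney disease genes hardly differed. Pkd1, whose product polycystin-1 is the receptor-like partner in the ciliary polycystin complex and whose mutation is the main cause of dominant polycystic disease, was at 6.56 in the Iah1-KO and 6.53 in the Iah1-WT pool. Pkhd1, which encodes fibrocystin, the protein missing in recessive polycystic disease, was at 8.86 in Iah1-KO and 8.79 in Iah1-WT. The differences of 0.03 and 0.08 were 0.21 and 0.73 robust SDs. Their relatives Pkd1l1 (3.40 in Iah1-KO, 3.62 in Iah1-WT) and Pkd2l1 (3.50 in Iah1-KO, 3.23 in Iah1-WT) lay under the median of all probe sets and are not shown to be above background.

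Genes that fold and export polycystin-1 were likewise close. Ganab, the catalytic subunit of glucosidase II, was at 9.22 in the Iah1-KO and 9.17 in the Iah1-WT pool. Dnajb11, a co-chaperone of the endoplasmic reticulum, was at 8.26 in Iah1-KO and 8.18 in Iah1-WT. Of other cystic disease genes, 14 reached the floor, 8 above 0 and 6 below, and their median was 0.03. Pmm2, an enzyme of glycosylation, was at 8.19 in Iah1-KO and 8.46 in Iah1-WT. It was the only one of them past 1.2-fold, beside 3.77% of all genes at or above the floor that were lower. Muc1 differed by 0.24, the translocon partner Sec63 by -0.21, and Tsc2, a brake on mTOR signalling, by 0.16.

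The regulators of tubule form were all higher in the Iah1-KO pool by small amounts. Bicc1, an RNA-binding protein whose loss gives cystic kidneys in mice, was at 9.10 in Iah1-KO and 8.94 in Iah1-WT. Its difference of 0.16 was 1.82 robust SDs, at a brightness where the robust SD was 0.09. The zinc finger factors Glis2, a nephronophthisis gene, and Glis3 were also close, Glis2 at 8.42 in Iah1-KO and 8.29 in Iah1-WT and Glis3 at 6.70 in Iah1-KO and 6.63 in Iah1-WT.

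Membrane targeting genes were at or below 0. Arl3, the GTPase that releases lipid-modified cargo in the cilium, was at 8.66 in the Iah1-KO and 8.67 in the Iah1-WT pool. Cys1, which encodes the myristoylated ciliary protein cystin that is lost in the cpk mouse, was at 6.73 in Iah1-KO and 6.89 in Iah1-WT, a difference of -0.16, or 1.05 robust SDs. Cys1 is the one member near the knocked-out gene: both are on mouse chromosome 12, with 19 protein-coding genes of RefSeq GRCm38.p6 between them. Iah1's direct neighbours Cpsf3 (7.63 in Iah1-KO, 7.88 in Iah1-WT) and Adam17 (6.66 in Iah1-KO, 6.64 in Iah1-WT) differed by -0.25 and 0.02, and Cys1's neighbours Klf11 (-0.08) and Rrm2 (4.04 in Iah1-KO, 4.60 in Iah1-WT) by different amounts. A shared effect of the locus was not tested.

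Signalling that runs through the cilium was read from 2 further lists. Hedgehog genes had 6 at or above the floor, 5 above 0 and 1 below. Evc, which encodes a protein at the base of the cilium that relays Hedgehog signals, was at 8.73 in the Iah1-KO and 8.27 in the Iah1-WT pool. Its difference of 0.46 was the furthest from 0 of the 66 other cilium genes at or above the floor, beside a robust SD of 0.11, and its partner Evc2 was at 6.04 in both pools. The receptor gene Ptch1, itself a Hedgehog target, was at 7.27 in Iah1-KO and 7.09 in Iah1-WT. Of the genes below the floor, the usual target gene Gli1 was at 4.24 in Iah1-KO and 4.12 in Iah1-WT, and Dhh (0.29) and Shh (0.18), which encode ligands, were above 0. The transcription factors Gli2 (-0.40) and Gli3 (-0.23) and the inhibitor Hhip (-0.34) were below 0. Dhh, Shh, Gli3 and Hhip lay under the median of all probe sets in both pools, and Gli2 in the Iah1-KO pool alone. They are not shown to be above background. Robust SDs at the brightness of Gli1 and these dim genes were 0.23 to 0.28, so no direction of the pathway is read from them. Smo differed by 0.17 and Sufu, the pathway's inhibitor, by -0.16.

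Genes of cAMP signalling, which drives fluid secretion into cysts, had 8 at or above the floor, 6 above 0 and 2 below. Past 1.2-fold were 0 of them, beside 9.13% of all genes at or above the floor. Prkar2a, a regulatory subunit of protein kinase A, differed by 0.25, Pde4c, a phosphodiesterase, by 0.19 and the catalytic subunit Prkaca by -0.15. The vasopressin receptor gene Avpr2 was at 6.17 in Iah1-KO and 6.19 in Iah1-WT. Lipidated cargo carriers and related genes had 4 at or above the floor, with Pde6d, the cargo carrier that ARL3 unloads, furthest at -0.21. Cilium disassembly genes had Kif2a at 0.05 and Hdac6 at -0.02. Over all 11 lists, 66 genes that are no members reached the floor, and their median was 0.01. Of these 6 were higher by 1.2-fold (9.09%, beside 5.36% of all genes at or above the floor) and 3 lower (4.55%, beside 3.77%), and 0 passed 1.5-fold. Among the 6, 2700049A03Rik, B9d1 and Ninl reached the floor through the Iah1-KO pool alone and could only be counted as higher. The shares are thus no sign of a direction.

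**Figure D5:**
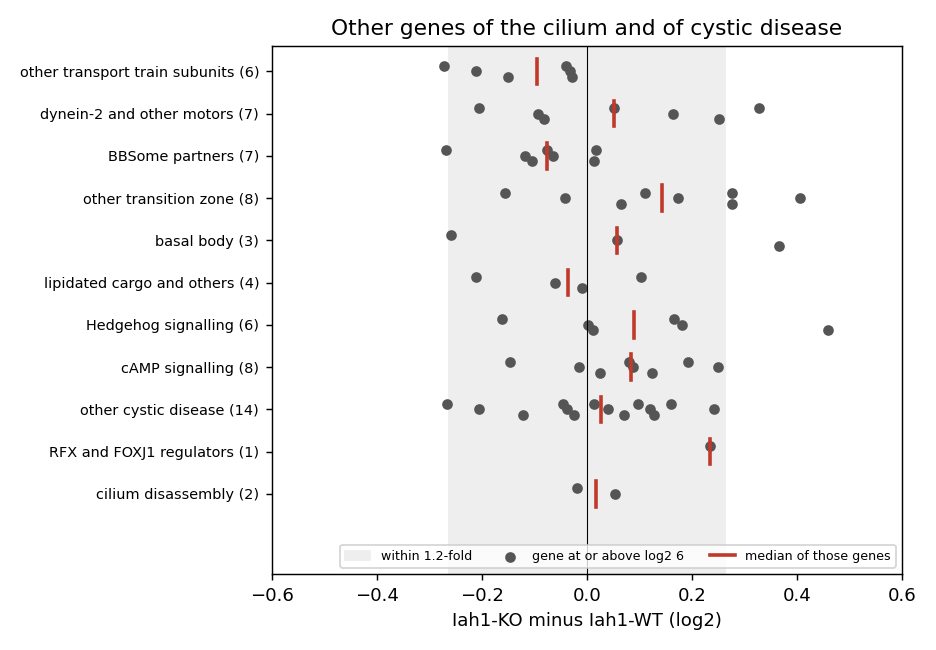
Difference between the Iah1-KO and Iah1-WT pools (log2) for other cilium and cystic disease genes at or above the floor, by list, with the number of genes in brackets. Red bars are medians and the grey band marks less than 1.2-fold. The 6 genes in the row of other transport train subunits, the adaptor Tulp3 among them, are all below 0, with Wdr19, Tulp3 and Cluap1 close to it. The gene furthest right is Evc, at 0.46.

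Markers of other cells were read in the same arrays. Motile, many-ciliated cells were not clearly detected: the 10 measured of 11 markers lay between 3.17 and 4.58, with the master regulator Foxj1 at 3.52 in the Iah1-KO and 3.56 in the Iah1-WT pool. The 7 principal cell markers of the collecting duct, a site of cysts in recessive disease, went both ways, 4 above 0 and 3 below. The water channels Aqp4 (7.50 in Iah1-KO, 6.94 in Iah1-WT) and Aqp2 (6.68 in Iah1-KO, 6.20 in Iah1-WT) were furthest above 0. Scnn1b (-0.12), Hsd11b2 (-0.08) and Avpr2 (-0.02) were below. The summed linear signals of the 7 were 1611 in Iah1-KO and 1502 in Iah1-WT. The 8 proximal tubule markers were 4 above and 4 below 0. The loop of Henle markers at or above the floor were all below 0, by -0.04 to -0.24. The intercalated cell markers were 2 above and 3 below. The proton pump subunit gene Atp6v1g3, at 6.64 in the Iah1-KO and 7.46 in the Iah1-WT pool, had the largest difference of all markers at or above the floor, -0.81. It was the only one lower by 1.5-fold, a size that 0.43% of all genes at or above the floor reached in either direction. Endothelial markers were 4 above and 1 below. The 5 macrophage markers went both ways: Lyz2 was at 6.74 in Iah1-KO and 6.11 in Iah1-WT, Cx3cr1, which reached the floor through the Iah1-KO pool alone, differed by 0.41 and Csf1r by 0.11, while below the floor Adgre1 was at 4.37 in Iah1-KO and 5.10 in Iah1-WT and Cd68 differed by -0.23. Adipocyte, adrenal and urothelial markers all lay below the floor. The part of these cell types in the member values was not tested.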

How the data were processed

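The authors deposited log2 values of each probe set, which per the submitters' processing notes came from RMA and from Affymetrix Expression Console 1.3.0. RMA forces the arrays to 1 distribution, so a shift of most transcripts would not show. Because no source used here names the genome build of the probe annotation, only RefSeq promoter sequences carry coordinates. The promoter matches of 1 member are counted but not reported here.

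Of 41345 probe sets, 23521 had exactly 1 symbol in GEO's platform annotation. They covered 22180 genes, and all 49 members matched RefSeq (GRCm38.p6) by Entrez number. Differences are Iah1-KO minus Iah1-WT, with no further normalization, and counts used genes whose higher value was at least 6. Counting and the robust SD were tested on simulated data. With 1 array per genotype there is no p-value, and precision is limited by the number of arrays.

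The members, lists and thresholds were chosen with earlier results of these data known. Values were printed for Pkd1, Pkhd1, Cys1, members past 1.2-fold, the furthest and brightest of each role group and up to 4 genes of each other list. Any further gene was named after its values were seen. Alternatives were other floors, centring, loess (span 0.3), the mean over probe sets and the mean of the members. Python 3.11.15, numpy 2.4.6, pandas 2.3.3, statsmodels 0.14.6 and matplotlib 3.10.9 were used.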

Additional observations from a re-analysis of the deposited data

How the results depend on the processing

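The floor decided how many members were counted. Members higher by 1.2-fold numbered 2 as reported. They numbered 5 with a floor of log2 5, 0 with a floor of log2 7 and 6 with no floor. The 5 include Ift74, which reached a floor of log2 5 through the Iah1-KO pool alone. Beside these counts, 7.53%, 3.10% and 10.3% of all genes in the same settings were higher by 1.2-fold. In the same settings 26, 6 and 28 members were above 0, and 9 were below 0 with a floor of log2 7. These settings admitted 44, 15 and 49 members, and the differences of dim genes scattered more. A floor of 6 on the mean of both arrays left 1 higher member (Bbs4), beside 4.66% of all genes. A floor of 6 in both arrays left 0, beside 3.98%. These 2 settings were chosen after seeing the data. Counts past 1.5-fold, and counts lower by 1.2-fold, were 0 in every setting run. Of all genes, 2.35% (floor of log2 7) to 11.6% (no floor) were lower by 1.2-fold. Centring, loess and the mean over probe sets left the count of higher members at 2 and the median between -0.004 and 0.005, and the mean of the members was 0.02. Of 147 alternative values of single members, 147 moved by less than the robust SD. Much of this was fixed in advance. Centring shifts every member by the same small amount, and the mean over probe sets changes only Kif7, Tctn3 and Tmem67. Of 72 alternative values of the Ift, Bbs and transition zone groups 21 moved, all through the floor, and the transition zone median turned to -0.02 with a floor of log2 7, which left Tmem231 alone. No paired analysis was possible because each genotype has 1 array.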

Other observations

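Probe sets shared with a neighbouring gene were not assigned to a member. The probe set of Inpp5e and Pmpca was at 6.55 in the Iah1-KO and 6.71 in the Iah1-WT pool, that of Tctn1 and Hvcn1 at 6.55 in Iah1-KO and 6.48 in Iah1-WT, and that of Tmem216 and Cpsf7 at 5.98 in Iah1-KO and 6.00 in Iah1-WT. Inpp5e encodes a phosphatase of the cilium membrane, and Tctn1 and Tmem216 belong to the transition zone. None of the 3 reached 1.2-fold.

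Among other cilium genes below the floor, the larger differences went both ways. The transition zone gene B9d2 was at 5.12 in the Iah1-KO and 4.53 in the Iah1-WT pool and Unc119, a carrier of lipid-modified cargo, at 4.45 in Iah1-KO and 3.86 in Iah1-WT. Tmem17, also of the transition zone, was at 3.92 in Iah1-KO and 4.54 in Iah1-WT, and Gpr161, a ciliary receptor that restrains Hedgehog signalling, at 3.51 in Iah1-KO and 4.07 in Iah1-WT. Robust SDs at their brightness were 0.25 to 0.28.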
